A study of Mus musculus with 6 samples.

Results

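Matricellular proteins are secreted glycoproteins that sit in the extracellular matrix and alter how cells adhere to it, without carrying its load in the way that collagens do. The levels of 10 genes were followed in mouse uterus: Tnc, Postn, Thbs1, Thbs2, Sparc, Spon2, Smoc1, Smoc2, Hmcn2 and Fn1. They were chosen by name, with earlier results of these data known, and all 10 were found among the 24077 genes of the single-cell table and the 30828 genes of each spatial table. CD-1 female pups were injected under the skin from day 1 to day 5 with corn oil alone (CO) or with 1 mg/kg/day of diethylstilbestrol (DES), a synthetic estrogen, in corn oil, and uteri were taken at 12 months. Dissociated uterine horns of 2 CO mice were pooled into 1 single-cell library and those of 4 DES mice into another. Visium spatial libraries came from 2 CO and 2 DES frozen sections, each from 1 mouse and here called A and B. The study describes its DES mice as having uterine adenocarcinoma, and DES sections were examined for it before regions were chosen. It took CO mice in estrus, because adult DES mice remain in estrus. CO section B had a tissue fold, and DES section B was described as less clear in its clusters. A Visium spot covers several cells, so that spots are regions and not cell types, and fewer cells of a type cannot be told apart from less RNA per cell in them.

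In the uterus these proteins surround stromal fibroblasts and smooth muscle and are known for tissue remodelling. Tenascin-C (Tnc) and periostin (Postn) are induced where matrix is rebuilt, and both bind integrins. Thrombospondins 1 and 2 (Thbs1, Thbs2) bind the receptor CD47, and thrombospondin 1 can release TGF-beta from its latent form. Sparc is a calcium-binding protein that handles collagen, and Smoc1 and Smoc2 are related proteins of basement membranes. Spondin 2 (Spon2) is a secreted integrin ligand, hemicentin 2 (Hmcn2) a very large immunoglobulin-repeat matrix protein, and fibronectin (Fn1) the scaffold onto which many of the others assemble.

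The promoters of Tnc, Thbs2 and Hmcn2 are printed because these genes had the highest DES levels, relative to CO, in stromal or epithelium-rich spots among the members for which a RefSeq promoter was at hand. Of the 10 members, 5 had such an entry (Tnc, Postn, Thbs2, Sparc and Hmcn2). The runs below are the 250 bases before the RefSeq start, 5′ to 3′ on the gene's strand, on GRCm38.p6. Capitals mark matches to TATAAA or GGGCGG in Tnc, to TATAAA on the other strand in Thbs2 and to TGANTCA in Hmcn2.
Tnc, chr4:64047016-64047265, minus strand: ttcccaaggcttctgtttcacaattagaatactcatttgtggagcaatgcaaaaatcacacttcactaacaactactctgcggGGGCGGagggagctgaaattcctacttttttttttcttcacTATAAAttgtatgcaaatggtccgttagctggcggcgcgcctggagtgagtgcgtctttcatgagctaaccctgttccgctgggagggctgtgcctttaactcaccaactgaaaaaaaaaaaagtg
Thbs2, chr17:14694263-14694512, minus strand: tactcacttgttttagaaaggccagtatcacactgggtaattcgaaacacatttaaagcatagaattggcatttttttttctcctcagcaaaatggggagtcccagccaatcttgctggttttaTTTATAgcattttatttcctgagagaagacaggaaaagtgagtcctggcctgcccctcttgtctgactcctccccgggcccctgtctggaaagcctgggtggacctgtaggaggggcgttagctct
Hmcn2, chr2:31314082-31314331, plus strand: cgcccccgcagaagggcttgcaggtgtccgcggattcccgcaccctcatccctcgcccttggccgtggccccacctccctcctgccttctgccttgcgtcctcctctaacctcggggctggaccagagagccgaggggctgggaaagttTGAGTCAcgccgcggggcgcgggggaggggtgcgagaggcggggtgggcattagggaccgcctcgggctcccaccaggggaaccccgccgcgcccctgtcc
The letters searched, on both strands, were TGANTCA (the AP-1 motif), TATAAA (the TATA box) and GGGCGG (the SP1 motif), and the full palindromic estrogen response element was searched as well. In Tnc the TATAAA match began 126 bases and the GGGCGG match 167 bases before the start. RefSeq has another Tnc start within the gene, before which the same matches began 205 and 246 bases. In Thbs2 the TATAAA match also began 126 bases before the start, and in Hmcn2 the TGANTCA match began 101 bases before it. Of 32851 RefSeq promoters of this length, 6.75% held TGANTCA, 12.4% TATAAA, 32.7% GGGCGG and 0.0639% the estrogen response element, which none of the 3 windows held. A match is a description of letters and not of a bound factor. On GRCm38 the genes lie on chromosome 4 from 63959785 to 64047015 (Tnc), chromosome 17 from 14665500 to 14694235 (Thbs2), and chromosome 2 from 31314415 to 31460738 (Hmcn2). Thbs1 lies on chromosome 2 from 118111876 to 118127133, Postn on chromosome 3 from 54361109 to 54391037, Spon2 on chromosome 5 from 33198184 to 33218455, and Sparc on chromosome 11 from 55394500 to 55423183. Smoc2 lies on chromosome 17 from 14279506 to 14404790, Smoc1 on chromosome 12 from 81026808 to 81186414, and Fn1 on chromosome 1 from 71585520 to 71653200.

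The CO and DES sections held 9117099 to 12506177 unique molecular identifiers (UMIs) in 1357 to 1834 spots, and the cell libraries 32387 CO and 16312 DES cells, of which 12253 and 9701 carry a cell type from the authors. Levels are given as a gene's UMIs scaled to the total of the region or cell group as counts per 1000000 (CPM). Intervals cover counting error only, and 180 cell barcodes occurred in both cell libraries. The spots were read as whole sections, as the stromal cluster of each section, as the 25% of spots richest in the smooth muscle genes Myh11, Des, Actg2 and Cnn1 (muscle-rich), and as the 25% richest in epithelial and basal keratin genes with Epcam and Cdh1 (epithelium-rich). These regions overlap. The stromal clusters held 101 and 188 spots in CO and 211 and 132 in DES, and their makeup differed by treatment. The summed stromal markers (Dpt, Vcan, Col6a3, Pdgfra and Dcn, all detected) stood at 5452 and 4056 CPM in CO A and B and at 2890 and 1923 CPM in DES A and B. The summed smooth muscle markers, with Acta2 added, stood there at 888 and 700 CPM in CO and at 2705 and 8369 CPM in DES, and the basal markers Krt14, Krt5 and Trp63 at 0 and 90.0 CPM in CO and 7058 and 1998 CPM in DES. The pericyte markers Rgs5, Kcnj8, Notch3 and Pdgfrb summed to 689 and 806 CPM in CO and 266 and 361 CPM in DES, and the endothelial markers Pecam1, Cdh5 and Kdr to 161 and 232 CPM in CO and 54.2 and 130 CPM in DES. None of the stromal-cluster spots of the CO sections lay in the muscle-rich region, against 15.6% in DES A and 61.4% in DES B.

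In the stromal spots the 10 members went in different directions. Hmcn2, Tnc and Smoc1 rose in DES, Spon2 fell, and the other members did not pass the test. These 4 calls compare with 0.796% of the 8914 genes tested that rose and 0.673% that fell at a Benjamini-Hochberg adjusted p of 0.05 in edgeR's quasi-likelihood test. The median log2 fold change of the members was 0.99 and that of all genes 0.00.

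Hmcn2 stood at 7.16 and 14.1 CPM in the stromal spots of CO A and B and at 521 and 245 CPM in those of DES A and B. Its CO values rest on 4 and 13 UMIs. Both DES sections lay far above both CO sections, and the log2 fold change was 5.02 ± 0.50 (SE, n = 2 sections a group, adjusted p = 0.0102 in edgeR). Tnc stood at 5.37 and 5.42 CPM in CO (3 and 5 UMIs) and at 104 and 28.9 CPM in DES (106 and 10 UMIs), so its fold rests on few UMIs. The groups did not overlap, DES A was well above DES B, and the log2 fold change was 3.61 ± 0.65 (adjusted p = 0.0387 in edgeR). Smoc1, which binds matrix and antagonizes BMP signals, stood at 21.5 and 17.3 CPM in CO and 147 and 104 CPM in DES. All DES values again exceeded the CO values, and the log2 fold change was 2.66 ± 0.36 (adjusted p = 0.0231 in edgeR).

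Spon2 moved the other way. It stood at 1252 and 994 CPM in the CO stromal spots and at 188 and 179 CPM in DES, where the 2 sections were nearly equal. Its log2 fold change was -2.66 ± 0.32 (adjusted p = 0.0185 in edgeR). The fall stood beside the lower stromal, pericyte and endothelial marker sums of the DES spots given above, whose part in it was not tested.

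The thrombospondins were higher in both DES sections without passing the test in edgeR, although DESeq2 called Thbs2 (adjusted p = 0.0103) and edgeR with no filter on low counts called both. Thbs2 stood at 3.58 and 22.8 CPM in CO (2 and 21 UMIs) and 176 and 49.1 CPM in DES (log2 fold change 2.92 ± 0.71, adjusted p = 0.0920 in edgeR). Thbs1 stood at 12.5 and 34.7 CPM in CO and 140 and 57.7 CPM in DES (1.96 ± 0.53, adjusted p = 0.127). For both genes the DES values lay above the CO values, and the sections of a group differed widely. Sparc stood at 1558 and 1624 CPM in CO and 1933 and 1389 CPM in DES, which overlap. Fn1 stood at 817 and 1377 CPM in CO and 638 and 661 CPM in DES, and Smoc2 at 406 and 128 CPM in CO and 93.6 and 173 CPM in DES. Postn could not be placed, since it stood at 5.37 and 166 CPM in the 2 CO sections and at 127 and 43.3 CPM in DES.

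The 4 stromal calls also held in the stromal spots that lay in neither the muscle-rich nor the epithelium-rich region, a choice made after the data were seen. There the log2 fold changes were 4.72 for Hmcn2, 3.73 for Tnc, 2.56 for Smoc1 and -2.35 for Spon2, while the smooth muscle sum was still 893 and 696 CPM in CO against 1892 and 2600 CPM in DES and the basal sum 0 and 32.0 CPM in CO against 6090 and 1867 CPM in DES. Whether they bear on the changes was not tested. In DES B that subset held 49 of the 132 stromal spots. There Tnc rested on 3 UMIs, Smoc1 on 8 UMIs (51.0 CPM) and Hmcn2 on 17 UMIs (108 CPM). When the stromal spots were taken by marker level in place of the clusters, 2 members were called, Thbs1 (1.86, adjusted p = 0.0495) and Spon2 (-2.14, adjusted p = 0.0176), and the other 3 calls were lost. Hmcn2 had a log2 fold change of 1.29 there (adjusted p = 0.242), Tnc 0.83 (adjusted p = 0.652) and Smoc1 0.16 (adjusted p = 0.930). Smoc1 overlapped between the groups in these spots, at 125 and 110 CPM in CO and 191 and 100.1 CPM in DES. Without DES section A only Hmcn2 was called (4.48, adjusted p = 0.00909), and without CO section B Tnc was not (3.65, adjusted p = 0.102).

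**Figure D1:**
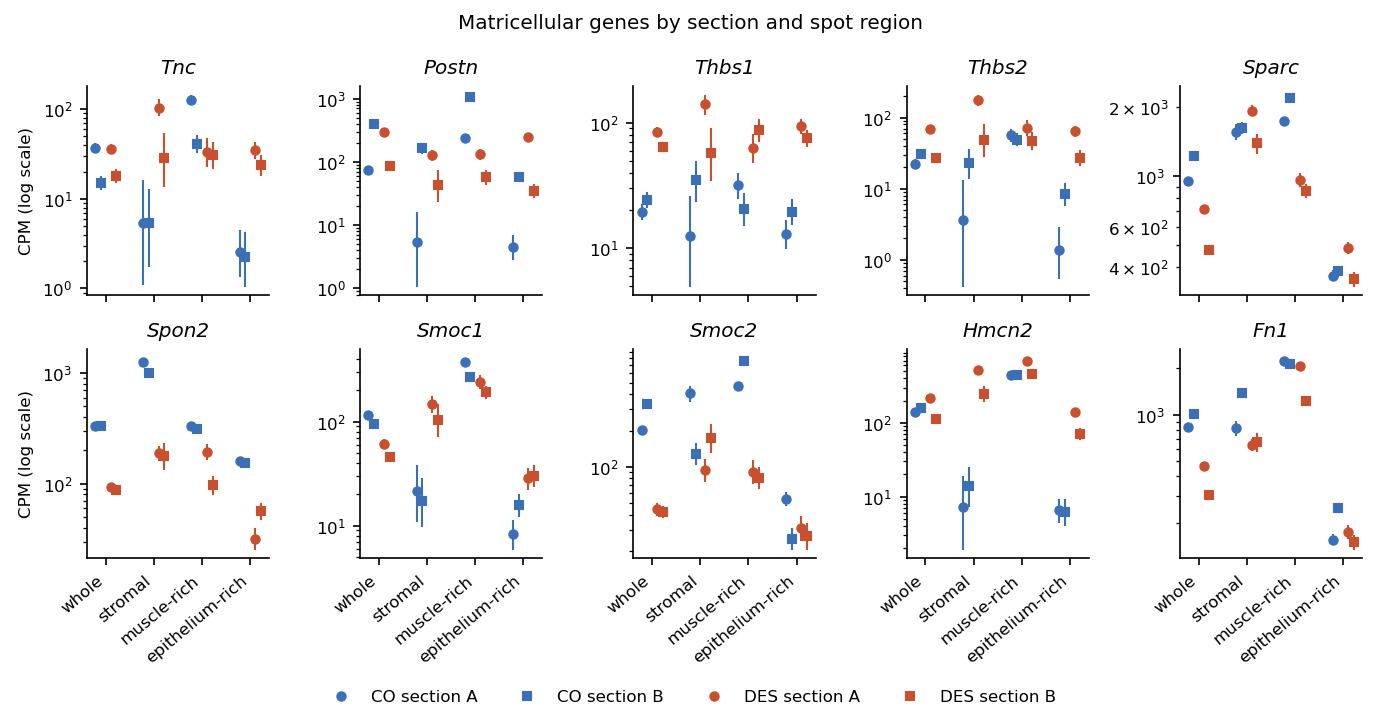
Level of each of the 10 genes in CPM, on a log axis that differs between panels, for whole sections and the 3 spot regions, with 1 point per section (circles A, squares B, blue CO, red DES) and bars for exact Poisson 95% intervals. Hmcn2 sits at 7.16 and 14.1 CPM in CO stromal spots and at 245 and 521 CPM in DES, while in muscle-rich spots all 4 sections lie between 443 and 685 CPM.

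The stromal clusters were next set against the other spots of the same sections. The fitted log2 ratio of stromal to other spots had a median over all genes of -0.03 in CO and -0.04 in DES. Over the members the medians were -0.60 and 1.49. By the fitted ratio, 4 of the 10 members were higher in the CO stromal clusters than outside them, and 9 of 10 in DES. By single sections the counts were lower, since only Sparc and Spon2 were higher in both CO sections, and all but Postn and Thbs1 in both DES sections. The clusters were formed on these same counts, so each of these values is a description with no test. In CO the log2 ratio of stromal to other spots was -3.89 ± 0.29 (SE) for Hmcn2, -2.57 ± 0.26 for Smoc1, -2.22 ± 0.47 for Tnc and -1.0 ± 0.36 for Thbs2. In DES the same ratios were 1.48 ± 0.19, 1.51 ± 0.21, 1.63 ± 0.29 and 1.52 ± 0.26, all on the other side of 0. Spon2 was higher in the stromal cluster in both groups, at 1.95 ± 0.18 in CO and 1.23 ± 0.19 in DES, and Postn was lower in both, at -1.83 ± 0.27 and -1.18 ± 0.27.

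The difference between the DES and the CO ratio was tested as an interaction with the section as a term. It passed for 6 members, all higher in DES, against 2.58% of the 13542 genes tested that were higher. The differences were 5.36 ± 0.35 for Hmcn2 (adjusted p = 3.16e-12 in edgeR), 4.09 ± 0.34 for Smoc1 (4.36e-10), 3.85 ± 0.54 for Tnc (1.29e-05), 2.52 ± 0.43 for Thbs2 (0.000234), 2.01 ± 0.47 for Smoc2 (0.00784) and 1.25 ± 0.23 for Sparc (0.000661). The median difference was 1.63 over the members and -0.02 over all genes. For Smoc2 and Sparc the stromal levels overlapped between the groups, as given above. Outside the stromal cluster Smoc2 stood at 192 and 351 CPM in CO and 38.0 and 37.6 CPM in DES. Sparc stood there at 926 and 1186 CPM in CO and 565 and 444 CPM in DES. Postn (0.66), Thbs1 (0.45), Fn1 (0.73) and Spon2 (-0.72) did not pass. These p-values are likely too small, because the clusters come from the same counts. Smooth muscle markers moved with the result: outside the stromal cluster they summed to 13927 and 15397 CPM in CO and 3124 and 3279 CPM in DES. Their part in it was not tested. Without CO section B the Smoc2 difference was 0.90 (adjusted p = 0.278), and DESeq2 did not call it (adjusted p = 0.920). With stromal spots taken by markers, all 10 members were higher in CO stromal than other spots, beside smooth muscle sums of 12638 and 17919 CPM in those CO spots. The median log2 ratio of CO stromal to other spots was then 0.57 over the members and -0.05 over all genes. In that fit the Hmcn2 difference was 1.70 (adjusted p = 6.13e-05) and the Thbs2 difference 0.14 (adjusted p = 0.914).

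**Figure D2:**
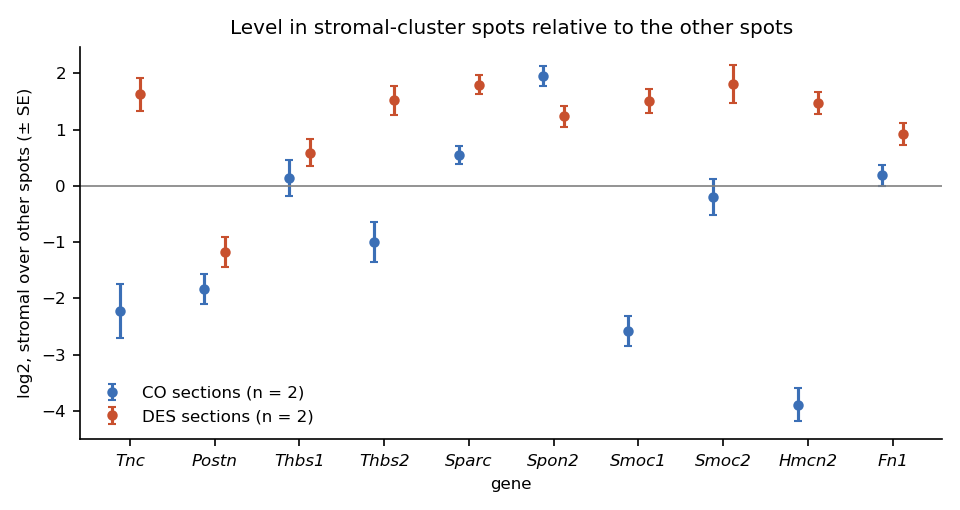
Log2 ratio of the level in stromal-cluster spots to that in the other spots of the same section, for CO (blue) and DES (red), with points for the edgeR estimate over 2 sections and bars for 1 SE. Hmcn2, Smoc1, Tnc and Thbs2 lie below 0 in CO and above it in DES, and Spon2 lies above 0 in both.

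Hmcn2 and Smoc1 followed smooth muscle across the spot clusters. Each section has 10 spot clusters from the authors, which makes 40 in all, and the cluster richest in Myh11, Des, Actg2 and Cnn1 held 326 CPM of Hmcn2 in CO A (cluster 4), 471 CPM in CO B (cluster 5), 895 CPM in DES A (cluster 6) and 675 CPM in DES B (cluster 8). In CO A it was highest in cluster 2 (496 CPM), the next richest in these genes. In the other regions the sections parted. In the clusters with the fewest muscle genes Hmcn2 stood at 5.34 CPM in CO A (cluster 1) and 4.44 CPM in CO B (cluster 2), against 63.9 CPM in DES A (cluster 8) and 25.3 CPM in DES B (cluster 2). Smoc1 was highest in muscle clusters as well, up to 480 CPM in CO A (cluster 9) and 313 CPM in DES A (cluster 6).

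**Figure D3:**
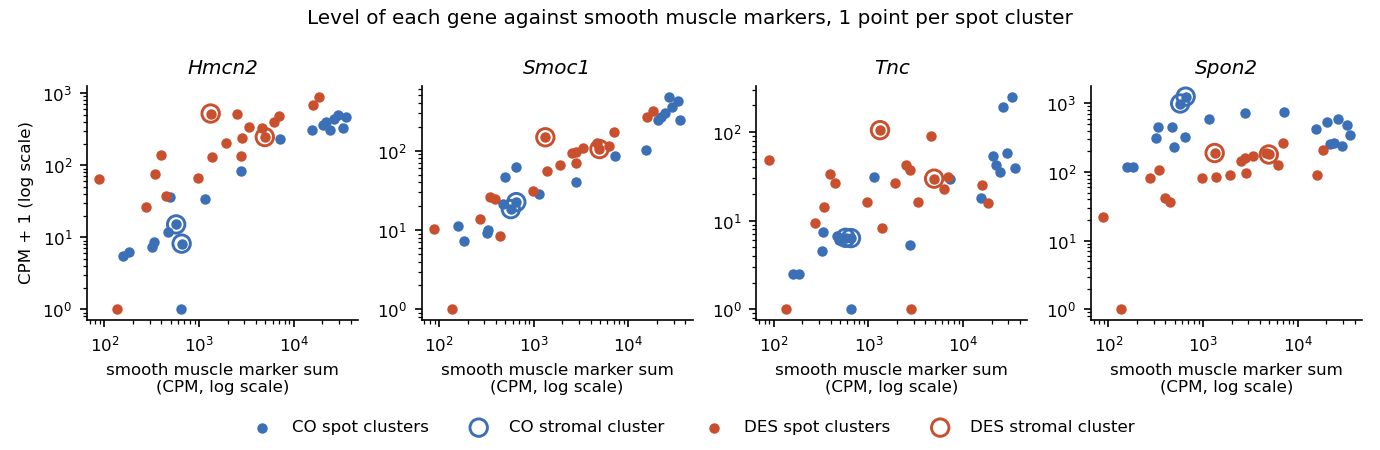
Level of Hmcn2, Smoc1, Tnc and Spon2 (CPM + 1, log axis) against the summed CPM of Myh11, Des, Actg2 and Cnn1 (log axis), with 1 point per spot cluster, blue for CO and red for DES, and rings around the stromal clusters. The DES stromal clusters lie higher than those of CO for Hmcn2, Smoc1 and Tnc and lower for Spon2, and they also lie farther right.

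In muscle-rich spots no member rose and 4 fell: Smoc2, Postn, Sparc and Spon2. Of the 11013 genes tested there, 3.27% rose and 2.05% fell, and the median log2 fold change was -1.12 for the members and -0.01 for all genes. The smooth muscle markers, the 4 genes that chose these spots with Acta2 added, summed to 47188 and 46236 CPM in CO and to 20922 and 18163 CPM in DES. The DES spots thus held less RNA of these markers. The stromal markers were lower as well, at 3140 and 3296 CPM in CO and 2239 and 1663 CPM in DES. The basal markers summed to 1.1 and 8.48 CPM in CO and 3062 and 2397 CPM in DES, the myeloid markers to 200 and 482 CPM and 728 and 756 CPM, and the epithelial markers to 304 and 242 CPM and 817 and 1155 CPM. What these differences add to the falls was not tested.

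Smoc2, a matrix protein that promotes growth-factor signalling, stood at 466 and 754 CPM in the CO muscle-rich spots and at 90.6 and 80.4 CPM in DES. The groups were far apart and the DES sections close together, and the log2 fold change was -3.11 ± 0.31 (adjusted p = 0.00206 in edgeR). Postn stood at 237 and 1081 CPM in CO and 132 and 57.1 CPM in DES (-3.10 ± 0.69, adjusted p = 0.0400). Here CO section B was several times above CO section A, and DESeq2 did not call Postn (adjusted p = 0.0767). Sparc stood at 1737 and 2192 CPM in CO and 962 and 862 CPM in DES (-1.38 ± 0.22, adjusted p = 0.0131), and Spon2 at 332 and 311 CPM in CO and 194 and 96.9 CPM in DES (-1.43 ± 0.32, adjusted p = 0.0414). Neither gene overlapped between groups.

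Hmcn2, called in stromal spots, stood at 444 and 443 CPM in the CO muscle-rich spots and 685 and 460 CPM in DES (0.09 ± 0.25, adjusted p = 0.900 in edgeR). Smoc1 stood at 377 and 266 CPM in CO and 239 and 192 CPM in DES (-0.85 ± 0.26, adjusted p = 0.110). Tnc was at 128 and 41.2 CPM in CO and 33.5 and 30.8 CPM in DES (-1.66 ± 0.49, adjusted p = 0.103), and DESeq2 called it (adjusted p = 0.0317). Thbs1 was at 31.6 and 20.6 CPM in CO and 63.1 and 87.1 CPM in DES (1.26 ± 0.32, adjusted p = 0.0622), and edgeR with no filter on low counts called it higher. For Hmcn2 the sections CO A, CO B and DES B were nearly equal, and Smoc1, Tnc and Thbs1 did not pass the test in edgeR. Without DES section B only Smoc2 kept its call (-3.04), and without DES section A Sparc lost its own, with fewer of all genes called each time. Without a CO section more members were called, Thbs1 as a rise among them, and so were more of all genes, as given at the end. With the richest 15% of spots in place of 25%, Smoc2 and Sparc were called.

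In epithelium-rich spots Hmcn2, Tnc and Thbs1 rose and Spon2 fell. Of the 12102 genes tested, 5.95% rose and 4.62% fell, and the median log2 fold change was 1.48 over the members and -0.02 over all genes. Hmcn2 stood at 6.49 and 6.28 CPM in CO and 140 and 70.9 CPM in DES, and its log2 fold change was 3.75 ± 0.40 (adjusted p = 0.0129 in edgeR). Tnc stood at 2.56 and 2.24 CPM in CO and 34.9 and 24.0 CPM in DES (3.31 ± 0.35, adjusted p = 0.0128). For both genes the CO sections were nearly equal and every DES value exceeded them. Thbs1 stood at 13.0 and 19.5 CPM in CO and 93.8 and 75.2 CPM in DES (2.10 ± 0.26, adjusted p = 0.0164), and Spon2 at 159 and 155 CPM in CO and 31.8 and 56.6 CPM in DES (-2.12 ± 0.31, adjusted p = 0.0209). Thbs2 stood at 1.38 and 8.30 CPM in CO and 63.7 and 27.2 CPM in DES without passing in edgeR (2.98 ± 0.80, adjusted p = 0.0744), and DESeq2 called it (adjusted p = 0.00123).

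In these spots the basal markers summed to 4.92 and 371 CPM in CO and 17257 and 10722 CPM in DES, and the smooth muscle markers to 357 and 330 CPM in CO and 857 and 1385 CPM in DES. The myeloid markers (Lyz2, Csf1r, Adgre1, Cd68 and Ptprc) summed to 129 and 219 CPM in CO and 880 and 527 CPM in DES, and the stromal markers to 1251 and 931 CPM in CO and 690 and 468 CPM in DES. Their part in these calls was not tested. The same 4 members were called in epithelium-rich spots outside the muscle-rich region and the stromal cluster, a choice made after the data were seen. Without DES section A only Hmcn2 kept its call (3.19), and without DES section B only Hmcn2 and Tnc did. Far fewer of all genes were called in each of these fits. Without a CO section more members and more of all genes were called, as given at the end.

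Over whole sections Thbs1 rose and Spon2, Smoc2 and Fn1 fell, among 14098 genes of which 2.67% rose and 2.63% fell. The median log2 fold change was -0.79 over the members and -0.01 over all genes. Spon2 stood at 330 CPM in each CO section and at 92.8 and 88.7 CPM in DES (-2.07 ± 0.16, adjusted p = 0.0183 in edgeR). Smoc2 stood at 202 and 332 CPM in CO and 44.2 and 42.3 CPM in DES (-2.83 ± 0.28, adjusted p = 0.0212). Both genes were about equal in the 2 DES sections and lower there than in either CO section.

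Thbs1 stood at 19.4 and 24.3 CPM in CO and 84.2 and 64.4 CPM in DES (1.56 ± 0.21, adjusted p = 0.0293 in edgeR). Fn1 stood at 830 and 1005 CPM in CO and 469 and 304 CPM in DES (-1.46 ± 0.26, adjusted p = 0.0488). The groups did not overlap for either gene. Smoc1 (117 and 94.1 CPM in CO, 61.0 and 45.5 CPM in DES, adjusted p = 0.0535) and Sparc (954 and 1223 CPM in CO, 718 and 477 CPM in DES, adjusted p = 0.0881) were lower in both DES sections without passing. Tnc (37.2 and 15.1 CPM in CO, 36.3 and 18.1 CPM in DES), Postn (73.4 and 403 CPM, 301 and 87.5 CPM), Thbs2 (22.5 and 30.5 CPM, 68.4 and 27.0 CPM) and Hmcn2 (138 and 159 CPM, 217 and 112 CPM) did not pass either. For these 4 genes the sections of the groups overlapped. The whole-section makeup moved with these results: smooth muscle markers summed to 13345 and 14168 CPM in CO and 3077 and 3458 CPM in DES, and the stromal markers to 2452 and 2453 CPM in CO and 1140 and 762 CPM in DES. The basal markers summed to 3.36 and 160 CPM in CO and 9526 and 5644 CPM in DES, and the myeloid markers to 209 and 469 CPM in CO and 1705 and 889 CPM in DES. Their part was not tested. Without DES section A or B edgeR called none of the members, and it called 14 and 3 genes in all. The 4 called members kept their direction in each of these fits.

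Single spot clusters showed where each gene was concentrated. Tnc was sparse, with a UMI in 20.03% of the spots of CO A, 7.96% of those of CO B, 9.21% of those of DES B and 15.3% of those of DES A, while Sparc had one in 80.2% to 94.1% of the spots of a section. Postn was highest in CO B in the muscle cluster 5 (1479 CPM) and in cluster 3 (898 CPM), and in DES A in cluster 8 (884 CPM), whose leading genes were S100a9, S100a8, Spp1 and Il1b. In DES A the muscle cluster 6 held 121 CPM of Postn. In DES B Postn was highest in cluster 2 (169 CPM), led by Crh and Lypd8. In CO A Postn was highest in the muscle cluster 2 (289 CPM). Postn was thus highest in a muscle cluster in both CO sections. In each DES section it was highest in the cluster with the fewest muscle genes. Cluster 8 of DES A, led by neutrophil and macrophage genes, also held epithelial and basal keratin genes with Epcam and Cdh1, at a sum of 12316 CPM. For cluster 2 of DES B the same sum was 7125 CPM. Larger sums also went with less Postn, as in cluster 1 of DES A (18468 CPM, Postn 307 CPM) and cluster 7 of DES B (13194 CPM, Postn 43.2 CPM). Tnc was highest in CO A in clusters 4 and 9 (251 and 193 CPM), both rich in muscle genes, and in DES A in the stromal cluster (104 CPM), while in DES B the stromal cluster (10 UMIs, 28.9 CPM) could not be placed among the others. Smoc2 reached 1364 CPM in cluster 9 of CO A and 1552 CPM in cluster 8 of CO B, and no more than 206 CPM in any DES cluster. In DES B the cluster led by Cfd and Car3, genes of fat cells, held 310 CPM of Thbs2 and 186 CPM of Thbs1 in 47 spots, the highest of that section for both.

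The genes most like each member over the 40 spot clusters were found among 9098 genes by Pearson's r of log2(CPM + 1). The points share 4 sections and their depth, and 3 of them hold under 20 spots (1 in CO B and 2 in DES A, of which cluster 10 has 2 spots and no UMI of 9 members), so r is a description. Without these 3 clusters, a choice made after the data were seen, 13 of the 30 genes named here remained among the first 3 of their member. Smoc1 was most like Myh11 (0.961), the smooth muscle myosin heavy chain, with Tpm2 (0.956) and Speg (0.955). Hmcn2 was most like Jph2 (0.952), Lmod1 (0.926) and Prelp (0.925). Sparc was most like the collagen gene Col1a2 (0.964), with Cd248 (0.951) and Mmp19 (0.937).

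Spon2 was most like Lamb1 (0.927), Col4a1 (0.913) and Fbln2 (0.906), all genes of basement membrane or elastic matrix. Fn1 was most like Palld (0.962), Igfbp6 (0.956) and Sdc3 (0.952), and Smoc2 like Hspg2 (0.889), 2510009E07Rik (0.888) and Pmp22 (0.875). Thbs2 was most like Hmcn2 (0.885), then Col12a1 (0.870) and Csf1r (0.866). Thbs1 was most like Gpr137 (0.865), Plec (0.852) and Ppp1r37 (0.850), but over the DES clusters r with Gpr137 was 0.939 with the small clusters and 0.409 without them. Postn (Pik3ip1, 0.847, Ahnak2, 0.790, and Ecm1, 0.768) and Tnc (Dclk1, 0.843, Shisa4, 0.838, and Slc38a1, 0.838) had the lowest leading values. Over the DES clusters r without the small clusters was 0.116 for Postn with Pik3ip1, from 0.794 with them, and 0.214 for Tnc with Dclk1, from 0.756.

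Between members, r was 0.971 for Hmcn2 and Fn1 over the DES clusters (0.930 without the small clusters) and 0.656 over the CO clusters (0.717 without). For Spon2 and Hmcn2 it was 0.881 over the DES clusters (0.675 without) and 0.129 over the CO clusters (0.123 without), and Spearman's rho over all 40 was 0.0603. The difference between groups was not tested for these correlations.

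The single-cell libraries give the same genes by cell type, with 1 library a condition and so no replicate check and no test. The DES library held 1 stromal cell, 5 endothelial cells and no pericytes or myocytes, so DES levels in stroma and muscle rest on the spots. The cell names were checked against their markers. Dpt was at 265 CPM in stromal and 1.88 CPM in mesothelial cells of CO, Myh11 at 2419 CPM in CO myocytes, and Msln at 660 and 956 CPM in CO and DES mesothelial cells. The stromal marker Dcn was higher in CO mesothelial cells (17675 CPM) than in CO stromal cells (8859 CPM). In CO, Spon2 was highest in stromal cells, at 549 CPM (95% interval 536 to 563), against 56.5 CPM in the 85 myocytes. Fn1 was also highest there, at 588 CPM (575 to 602). After thinning to 3000 UMIs a cell, 72.7% of CO stromal cells held a Spon2 UMI and 78.4% an Fn1 UMI, against 1.13% and 4.06% of CO epithelial cells.

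Myocytes held the most Postn (178 CPM, 154 to 205), Hmcn2 (85.7 CPM, 69.3 to 105) and Smoc1 (83.0 CPM, 66.8 to 102) of any CO type. Smoc1 stood at nearly the same level in the cells that the authors named Ctla2a (79.9 CPM, 69.8 to 91.1), so their order cannot be given. In CO stromal cells these genes stood at 6.65 CPM (Postn), 6.73 CPM (Hmcn2) and 15.7 CPM (Smoc1). Tnc was low in every type, with 56 UMIs in CO stromal cells (4.77 CPM, 3.60 to 6.20). Sparc stood at 4899 CPM in CO mesothelial, 4879 CPM in CO endothelial and 4733 CPM in CO stromal cells, an order in which the first 2 do not differ beyond their counting error.

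Pairs of members were counted in single cells after a separate thinning to 3000 UMIs a cell, so shares can differ slightly from those above. Of 1303 CO stromal cells at 3000 UMIs, 192 held a Thbs1 UMI and 50 a Smoc1 UMI, and 17 held both, where the product of the shares gives 7.37. Thbs1 and Spon2 were together in 103 cells, where the product gives 139. These are counts in 1 library.

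**Figure D4:**
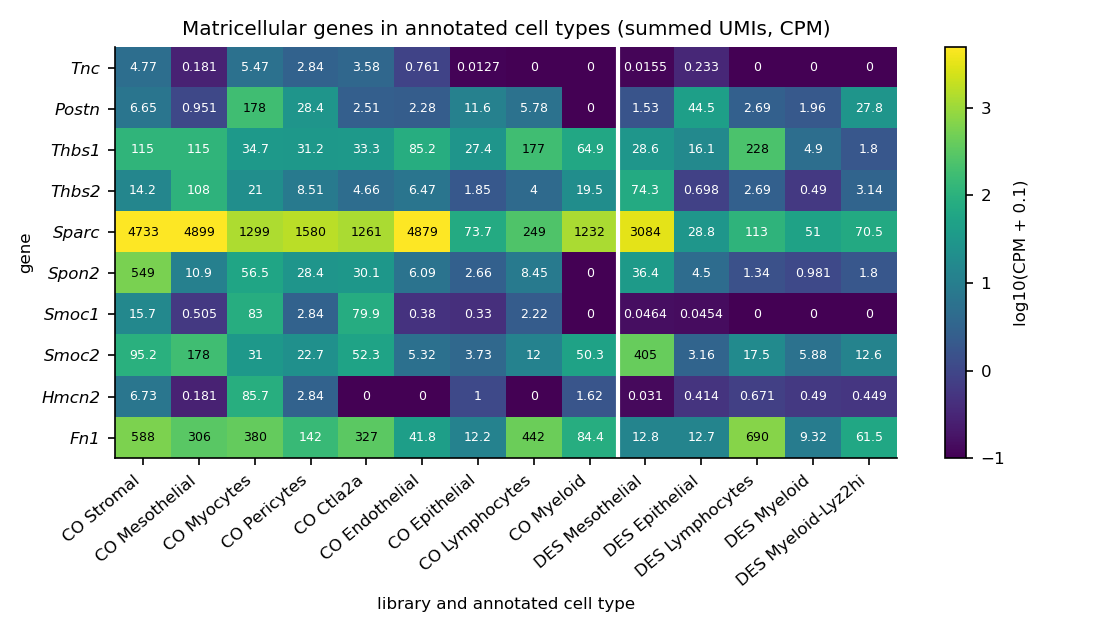
Level of the 10 genes (rows) in each annotated cell type with at least 50 cells (columns, CO left and DES right of the white line), with the colour giving log10(CPM + 0.1) and the printed number the CPM. Sparc is above 1000 CPM in all CO types but epithelial cells and lymphocytes, and Fn1 is at 306 CPM in CO and 12.8 CPM in DES mesothelial cells.

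Mesothelial cells, which line the outer surface of the uterus, were numerous in both libraries (6866 CO and 3837 DES cells). Among 8814 genes at or above 10 CPM in CO or DES, 1.89% were past 2-fold up in DES and 2.33% past 2-fold down, and of the 6 members so measured Spon2 and Smoc2 were up and Thbs1 and Fn1 down. Fn1 stood at 306 CPM (302 to 309) in CO and 12.8 CPM (12.0 to 13.8) in DES, a 23.8-fold lower level in DES (22.2 to 25.5). The thinned share of cells with an Fn1 UMI was 39.0% in CO and 3.65% in DES, against 4.06% of CO and 2.63% of DES non-basal epithelial cells. The DES mesothelial share was thus close to that of epithelial cells. Median depths were 10436 and 12329 UMIs in mesothelial cells and 23458 and 24664 UMIs in epithelial cells. Thbs1 stood at 115 CPM (113 to 117) in CO and 28.6 CPM (27.3 to 29.9) in DES, 4.02-fold lower in DES (3.82 to 4.23).

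Smoc2 stood at 178 CPM (175 to 180) in CO and 405 CPM (400 to 410) in DES mesothelial cells, a ratio of 2.28 (2.24 to 2.33), with thinned shares of 39.4% and 68.4%. In epithelial cells the Smoc2 shares were 1.25% and 1.27%. Spon2 stood at 10.9 CPM in CO and 36.4 CPM in DES, a ratio of 3.34 (3.09 to 3.61). Both genes were higher in DES mesothelial cells and, in the section data, lower in DES whole sections. Sparc was 1.59-fold lower in DES (1.58 to 1.60) and Thbs2 stood at 108 CPM in CO and 74.3 CPM in DES.

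In non-basal epithelial cells (2583 CO and 4608 DES cells in the authors' clusters), 6.92% of 8414 genes were past 2-fold up and 7.71% past 2-fold down. Of the 4 members with at least 10 CPM, Postn was up and Thbs1 and Sparc down. Postn stood at 11.6 CPM (10.8 to 12.3) in CO and 47.2 CPM (46.1 to 48.3) in DES, a ratio of 4.08 (3.81 to 4.37). The thinned share of cells with a Postn UMI was 2.81% in CO and 7.98% in DES, against 0.268% of CO and 0.582% of DES mesothelial cells.

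Postn was uneven over the epithelial clusters. In DES it stood at 310 CPM in cluster 15 (54 cells), 123 CPM in cluster 5 and 110 CPM in cluster 1, and at 1.84 CPM in cluster 8 and 1.65 CPM in cluster 14. In CO the highest clusters were 11 (36.4 CPM) and 7 (34.2 CPM). So 6 of the 16 DES clusters (15, 5, 1, 6, 10 and 2) stood above every one of the 15 CO clusters.

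Sparc stood at 73.7 CPM (71.8 to 75.6) in CO and 16.4 CPM (15.8 to 17.0) in DES non-basal epithelium, 4.50-fold lower in DES (4.30 to 4.71). Over all cells of the libraries Sparc stood at 2266 CPM in CO and 798 CPM in DES, and in cells named lymphocytes at 249 and 113 CPM. The share of CO epithelial cells with a Sparc UMI (17.6%) was below that of CO lymphocytes (36.1%). The lymphocyte class also held myeloid genes, and Sparc stood at 1232 CPM in the 67 CO cells named myeloid. Whether the CO epithelial Sparc level is expression by these epithelial cells was not tested. Thbs1 stood at 27.4 CPM in CO and 11.4 CPM in DES (2.40-fold lower, 2.25 to 2.55), while over all cells it stood at 66.5 CPM in CO and 20.1 CPM in DES. The part of free RNA in these differences was not tested.

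**Figure D5:**
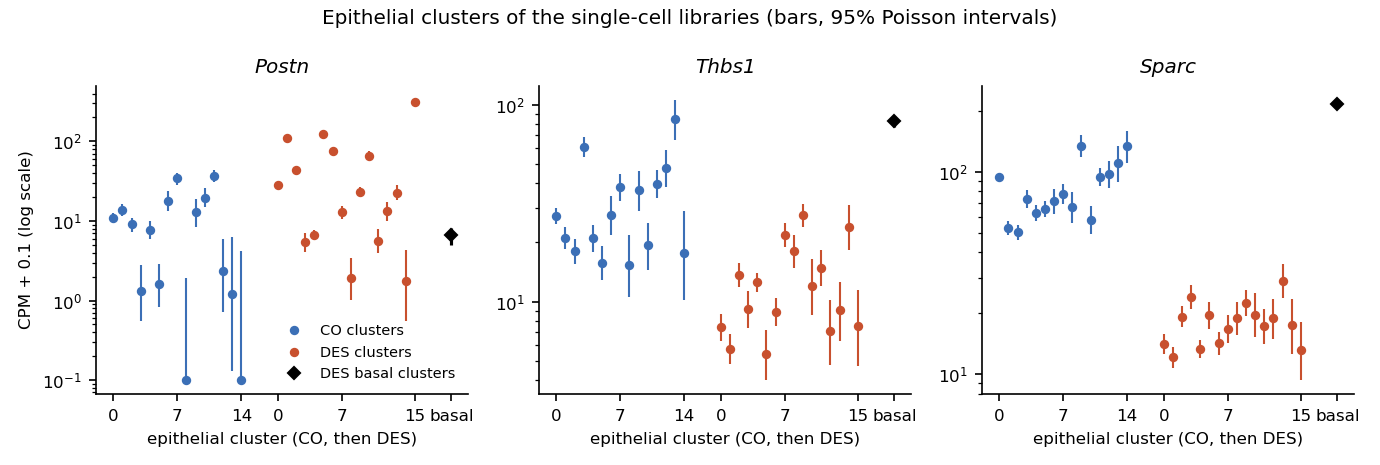
Level of Postn, Thbs1 and Sparc (CPM + 0.1, log axis) in each of the authors' epithelial clusters, numbered from 0 within CO (blue) and within DES (red), and in the DES basal clusters together (black diamond), with bars for exact Poisson 95% intervals. Postn spans 1.65 to 310 CPM over the DES clusters, and Sparc and Thbs1 are higher in the basal clusters than in any other DES cluster.

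Basal cells, which express Krt14 and Trp63 and occurred in DES, were taken as the 608 DES cells of the integrated epithelial clusters 8 and 11. Against CO epithelium 13.2% of the 8772 genes with at least 10 CPM in either group were past 2-fold up. Of the 5 members so measured Thbs1, Sparc, Spon2 and Fn1 were. Spon2 reached 10 CPM in the basal cells alone, so it could be counted only as up. Spon2 stood at 59.8 CPM (55.3 to 64.6) against 2.66 CPM, a ratio of 22.4 (19.2 to 26.3). Fn1 stood at 45.5 against 12.2 CPM (3.74, 3.35 to 4.18), Thbs1 at 82.1 against 27.4 CPM (3.0, 2.77 to 3.25) and Sparc at 217 against 73.7 CPM (2.95, 2.81 to 3.09). The part of free RNA in the CO levels, that of Sparc included, was not tested. In DES non-basal epithelium, of the same library, Spon2 stood at 0.89 CPM, Fn1 at 10.2 CPM, Thbs1 at 11.4 CPM and Sparc at 16.4 CPM. Tnc was found in 39 UMIs in basal cells (3.61 CPM, 2.57 to 4.94) and in 1 UMI in CO epithelium, a ratio of 285 with an interval of 48.2 to 11536. In DES non-basal epithelium Tnc had 2 UMIs. Thus Spon2, lower in all 3 DES spot regions, was higher in DES basal cells than in CO epithelium, at a level below that of CO stromal cells.

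Fn1 and Thbs1 were also found in the cells named lymphocytes. Fn1 stood there at 442 CPM (415 to 470) in CO and 690 CPM (649 to 734) in DES, and Thbs1 at 177 and 228 CPM. The tenth of these cells with the most Fn1 UMIs held 83.8% of them in CO and 63.9% in DES. The class also held Lyz2 at 3121 and 8351 CPM and Csf1r at 95.7 and 258 CPM, both myeloid genes, beside Cd3e at 81.4 and 107 CPM, so it is not lymphocytes alone. In cells named myeloid Fn1 stood at 84.4 CPM in the 67 CO cells and 9.32 CPM in DES.

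Other genes of these pathways were read from 3 lists. Of 37 other matricellular and matrix glycoproteins, 31 were tested in whole sections, where Thbs4 rose (log2 fold change 3.49) and Efemp2 fell (-1.06), beside 2.67% and 2.63% of all genes that rose and fell. DESeq2 called 3 of the 31 higher and 9 lower there, beside 5.83% and 6.87% of all genes. In epithelium-rich spots 4 of 28 rose, beside 5.95% of all genes, and Fbln1 fell (-1.30), beside 4.62%. These were Efemp1 (2.55), Fbln5 (1.82), Thbs4 and Wisp2. Thbs4 rested on 1 and 0 UMIs in CO and 53 and 74 UMIs in DES, and Wisp2 on 2 and 0 UMIs in CO and 168 and 42 UMIs in DES, so no fold is given for them. In muscle-rich spots Wisp2 (3 and 0 UMIs in CO, 45 and 14 UMIs in DES) and Spp1 (2.97) rose and Fbn1 (-1.45) fell, of 29, beside 3.27% and 2.05% of all genes. In stromal spots, where 0.796% of all genes rose and 0.673% fell, edgeR called none of 27. Of the 27, 8 had an unadjusted p under 0.05 in edgeR, beside 1194 of the 8914 genes tested. DESeq2 called 1 of the 27, beside 193 of 8914 genes.

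The same shares of all genes apply to the other lists. Of 21 receptors of the members, Itgb2 (1.80) rose and Itgb3 (-2.03) and Itga5 (-1.67), each a subunit of an integrin that binds fibronectin, fell in whole sections. In muscle-rich spots Itgam (2.66) and Itgb2 (1.71) rose and Itga5 (-1.40), Itgb1 (-1.21) and Itgb3 (-1.11) fell, of 18. With 25% of spots DESeq2 called 3 of 18, beside 512 of 11013 genes. With the richest 15% of spots edgeR called none of 17. Of these, 7 had an unadjusted p under 0.05, beside 1316 of 9549 genes. Itgam and Itgb2 are the subunits of a leukocyte integrin. In epithelium-rich spots the syndecans Sdc1 (1.98) and Sdc4 (1.30) rose, of 19. In stromal spots none of 16 was called by edgeR or DESeq2. Of the 16, 4 had an unadjusted p under 0.05 in edgeR, beside 1194 of 8914 genes.

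Of 11 TGF-beta ligands, latency proteins and receptors, Ltbp2 (3.45) and Ltbp1 (1.38) rose and Tgfbr3 (-1.54) fell in whole sections, and Ltbp2 (3.58) and Ltbp1 (1.88) rose in stromal spots. In epithelium-rich spots 6 rose: Ltbp1 (3.80), Ltbp2 (3.57), Tgfb2 (3.18), Tgfb1 (3.09), Ltbp4 (2.11) and Ltbp3 (1.26). In muscle-rich spots none was called by edgeR or DESeq2, with 2 at an unadjusted p under 0.05 in edgeR, beside 2057 of 11013 genes. The latent TGF-beta binding proteins thus made up 4 of the 6 calls in epithelium-rich spots. These counts changed when 1 section was left out, and so did the calls over all genes, as given at the end. Without DES section A or B none of the 3 lists had a call in whole sections in edgeR, where few of all genes had one. In epithelium-rich spots fewer genes of each list, and fewer of all genes, were called without a DES section. In muscle-rich spots the same held for the other matrix genes and the receptors. In stromal spots no TGF-beta gene was called without DES A or without CO B. In whole sections, muscle-rich and epithelium-rich spots more genes of each list, and more of all genes, were called without a CO section. The cause was not tested.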

How the data were processed

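The authors made the reads with bcl2fastq 2.20.0.422 and the UMI tables with Cell Ranger 3.0.1 for cells and Space Ranger 1.2.2 for Visium spots, on mm10. The deposited counts are raw and carry no normalization. They named cell types and epithelial clusters, and grouped the spots of each section into 10 clusters, of which the study names 1 a section as stroma. A column of the deposited metadata gives sequencing saturation as a fraction, which was not used. The study's methods state that doublets were removed with scran, and no doublet caller was run here. A further 350 cells named there have no counts and were left out.

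UMIs were summed per cell group, section or region (Python 3.11.15) and given as CPM with exact Poisson 95% intervals. Ratios between libraries carry exact conditional intervals, and shares were computed after thinning cells to 3000 UMIs. These intervals cover counting error only. Section sums were compared with edgeR 4.0.16 (TMM, its filter on low counts, quasi-likelihood test, Benjamini-Hochberg adjustment over all genes tested, threshold 0.05), with log2 fold changes on the TMM scale, which can differ slightly from the ratio of the printed CPM. An exact test of 2 sections against 2 cannot pass 0.05, so the p-values rest on the spread edgeR pools over genes. Where sections of the groups are said not to overlap, this describes the values and is no call. The share of all genes without overlap is not given here. Stromal against other spots is given without a test, although one was planned, because the clusters come from the same counts. The scripts were tested on simulated data. Alternatives were DESeq2 1.42.0, its size factors, no filter, each section left out, and other choices of spots. The members and lists were chosen with earlier results of these data known. Named genes were the members, the 3 genes most like each, and up to 4 genes per direction from each list with the largest changes past the threshold, and for TGF-beta in epithelium-rich spots all 6 that passed. Spot clusters, cell groups and pairs of members named beyond this rule were chosen after their values were seen. Gene positions are from GENCODE M21 on GRCm38 and promoters from RefSeq on GRCm38.p6.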

Additional observations from a re-analysis of the deposited data

Results flagged for a closer look

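The ratio of stromal to other spots differed between the DES and the CO sections for 6 of the 10 members in the test of the difference itself. The differences, on the log2 scale and higher in DES, were 5.36 for Hmcn2, 4.09 for Smoc1, 3.85 for Tnc, 2.52 for Thbs2, 2.01 for Smoc2 and 1.25 for Sparc, where 2.58% of all genes tested were called higher in DES. With stromal spots taken by markers the Hmcn2 difference was 1.70, the Smoc1 difference 1.56, the Tnc difference 1.1 and the Thbs2 difference 0.14, the last of them no longer called (adjusted p = 0.914 in edgeR). Postn, not called with the clusters (0.66), was called lower in DES by markers (-1.42, adjusted p = 0.00141 in edgeR) and higher without CO section B (2.82, adjusted p = 0.00371), so it has no settled direction. Fn1, not called with all sections (0.73), was called higher by markers (1.02, adjusted p = 0.00916 in edgeR), without CO section B (1.12, adjusted p = 0.0362) and without DES section A (1.09, adjusted p = 0.00359). The Smoc2 call was lost in DESeq2 and without CO section B. For Smoc2 and Sparc the stromal levels overlapped between the groups, and the levels outside the stromal cluster were lower in both DES sections. The spots called stromal in DES also held more smooth muscle and basal marker RNA than those called stromal in CO, as given above, and the part of this in the differences was not tested.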

How the results depend on the processing

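No paired analysis was possible because the labels give the groups only 1 letter in common, B, so that no 2 pairs of sections share one. Each comparison of DES with CO called 4 members, and leaving out 1 section gave 0 to 6 called members, new ones included, in whole sections (0 without DES A and 0 without DES B), 1 to 4 in stromal spots, 1 to 8 in muscle-rich spots and 1 to 8 in epithelium-rich spots. A fit with 1 section left in a group assumes that it varies like the other group. With no filter on low counts 8 members were called in muscle-rich spots, and with 15% of spots 2 were. With stromal spots by markers 2 members were called in stromal spots, and 10 members were higher in CO stromal than other spots. The median log2 ratio over all genes was -0.05 in the latter. Of the 30 genes most like a member by Pearson's r, 15 were among the first 3 by Spearman's rho and 13 over clusters of at least 20 spots. Over all genes, the 747 calls in whole sections became 1791 in DESeq2 and 3 to 2819 without 1 section. The 131 in stromal spots became 714 with no filter, 85 by markers and 40 to 357 without 1 section. The 586 in muscle-rich spots became 1436 with no filter, 117 with 15% of spots and 143 to 2069 without 1 section, the 1279 in epithelium-rich spots 83 to 3497 without 1 section, and the 456 differences in stromal enrichment 202 in DESeq2. The cause was not tested.

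Among single genes 28 values were counted as reversed, most of them near 0 and not called. The count leaves out sign changes of stromal-to-other ratios whose main estimate was small beside its SE. Cell ratios whose interval included equal levels were left out as well. In whole sections, leaving out 1 section gave Tnc -0.74 to 0.65, Postn -1.60 to 1.15, Thbs2 -0.16 to 1.12 and Hmcn2 -0.60 to 0.29, with 0.00 without CO B. In stromal spots Postn ranged from -1.0 to 3.97 without 1 section and was 0.12 in spots of no other region, and Sparc ranged from -0.16 to 0.14, with -0.0070 in DESeq2, -0.0074 with its size factors, -0.020 with no filter and -0.35 by markers. In muscle-rich spots Thbs2 ranged from -0.40 to 0.17 and Hmcn2 from -0.18 to 0.34, and in epithelium-rich spots Postn from -0.090 to 4.66 and Sparc from -0.36 to 0.089. By markers, the log2 ratio of CO stromal to other spots was 0.51 for Tnc, 0.89 for Postn, 1.84 for Thbs2, 0.11 for Smoc1 and 0.35 for Hmcn2, and the Postn difference was -1.42. Of these, the CO ratio of Postn was -1.83 by clusters and its difference passed by markers and, at 2.82 and so on the other side of 0, without CO B. Without 1 section the DES ratio of Thbs1 ranged from -0.067 to 0.90 and its difference from -0.20 to 1.39, with both lowest without DES A. The CO ratio of Smoc2 took opposite directions in the CO sections. Smoc2 stood at 406 CPM in the stromal and 192 CPM in the other spots of CO A, and at 128 and 351 CPM in those of CO B. In whole sections Spon2, Smoc2, Fn1 and Thbs1 kept their direction in all 7 alternatives. Of the other matrix genes, DESeq2 called 12 of 31 in whole sections, 11 of 28 in epithelium-rich and 5 of 29 in muscle-rich spots. Over all genes it called 1791 of 14098, 1706 of 12102 and 512 of 11013 there. Fits with no filter called 5 of 35 in whole sections, 10 of 32 in muscle-rich and 7 of 33 in stromal spots. Over all genes these fits called 863 of 19821, 1436 of 17094 and 714 of 16195. With 15% of spots 1 of 27 was called in muscle-rich and 8 of 25 in epithelium-rich spots. Over all genes 117 of 9549 and 1283 of 11224 were.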

Other observations

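In cells that carry no cell type (20134 CO and 6611 DES cells), Sparc stood at 1831 CPM in CO and 607 CPM in DES, Fn1 at 147 and 16.2 CPM, Spon2 at 34.9 and 8.03 CPM, and Postn at 7.20 and 28.8 CPM. Smoc2 stood there at 61.4 CPM in CO and 79.3 CPM in DES. Postn was higher in DES in these cells as in epithelial cells, and Fn1 lower as in mesothelial cells. In the DES myeloid cells that the authors set apart for high Lyz2, Postn stood at 27.8 CPM (62 UMIs, 21.3 to 35.7) and Fn1 at 61.5 CPM in 136 cells.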
